A study of Homo sapiens with 38 samples.

Results

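Expression arrays of senescent IMR90 cells, a line of human lung fibroblasts, were compared between cells with a short hairpin RNA against RB (shRB) and cells with the empty MLP vector, in the first of the study's 2 experiments. The members were taken from the sample titles and are the 2 arrays of senescent shRB cells and the 2 of senescent vector cells, 4 of 38 arrays in all. Senescence was induced with ras, so both groups carried ras and differed by the hairpin. The sources used here give neither the ras allele nor the hairpin sequences, nor the days between infection and harvest. The other groups used below are shRB, shp107 (hairpin against p107), shp130 (hairpin against p130) and vector cells that were growing in 10% serum, kept in 0.1% serum or confluent, and senescent shp107 and shp130 cells, all of experiment 1, with n = 2 arrays per group. From experiment 2 come senescent shRB and senescent vector cells, again with n = 2 each. Each array was hybridised with material from 1 µg of total RNA. The labels do not say that the 2 arrays of a group come from separate cultures, so the p-values measure only the spread between these arrays, which may be technical.

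RB is a pocket protein that binds E2F transcription factors and holds down their target genes, many of which encode the proteins that copy DNA in S phase. Its relatives p107 and p130 work with E2F4 and the MuvB proteins in a repressor complex that also sits at the CHR element of genes for mitosis. In cells made senescent by an oncogene, pocket proteins keep the cell cycle genes silent while the cells secrete cytokines, chemokines and proteases.

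The target of the hairpin was examined first. RB1, which encodes RB, had log2 values of 4.49 and 3.64 on the shRB arrays, against 9.14 and 9.63 on the vector arrays, so the groups lay far apart. The log2 change was -5.32 ± 0.36 (adjusted p = 1.95e-09), where ± gives the standard error (SE) and the adjusted p comes from limma with Benjamini-Hochberg adjustment over all genes tested. A second RB1 probe set lay near background on all 4 arrays, with log2 values of 3.21 and 3.24 in shRB cells, against 3.52 and 3.37 in vector cells. RBL1, which encodes p107, was low in both groups (4.57 and 3.92 in shRB cells, against 3.44 and 3.24 in vector cells) and was not called, with a log2 change of 0.90 ± 0.54 (adjusted p = 0.357). RBL2, which encodes p130, had log2 values of 7.94 and 7.72 in shRB cells, against 7.68 and 7.47 in vector cells and a log2 change of 0.25 ± 0.26 (adjusted p = 0.661). None of the other 3 RBL1 probe sets and of the other RBL2 probe set was called. RB1 was also low in the shRB cells of the other states of experiment 1, at 5.39 ± 0.28 in growing, 5.59 ± 1.22 in low-serum and 4.66 ± 0.16 in confluent cells (log2 mean ± SD, n = 2). In the vector, shp107 and shp130 groups of experiment 1 its mean lay between 9.06 and 9.91.

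Of 8511 genes tested, 830 were called at an adjusted p under 0.05 (9.75%), of which 509 rose (5.98%) and 321 fell (3.77%) with shRB. At least a 4-fold difference was seen for 130 of the risen and 35 of the fallen genes. On the 2 shRB arrays the risen genes averaged log2 levels of 8.07 and 7.68, against 6.20 and 6.23 on the vector arrays, and the fallen genes 6.88 and 6.67, against 7.90 and 8.18. The groups did not overlap for any of the 830 genes, which also held for 53.5% of all genes tested. For 170 risen genes the vector mean was at most 5, where values approach background, and 34 of the risen genes passed the filter on low values only through the senescent shRB arrays. With the mean of all probe sets of a gene in place of its brightest, 45 of 130 called genes named below had a log2 change smaller by over 1.5 times, among them RB1 at -2.77, TYMS at 2.58, MCM6 at 2.23 and RECK at -0.56, and 12 calls were lost. When the 4 compared arrays alone were fitted, which leaves the changes as they are, 300 genes were called, and 52 of the 139 called genes named below lost the call. The count fell to 376 without vector replicate 2, with 297 higher and 79 lower, and to 507 without shRB replicate 1, with 251 higher and 256 lower.

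The letters of E2F and CHR motifs were searched in promoters, and example promoters that each hold a motif are printed below. Not every replication or mitosis gene holds one, as the shares show. The window of each gene ran from 250 bases before to 50 bases after its start site in RefSeq (GRCh38.p14), and the first listed window was used for the 27305 genes that have one. The E2F motifs searched on both strands were TTTGGCGC, TTTCGCGC, TTTCCCGC, TTTGCCGC, TTTGGCGG, TTCCCGCC and TTGGCGCC, of which TTTCCCGC and TTCCCGCC can overlap. The CHR motifs were TTTGAA and TTTAAA. An E2F motif stood in the windows of 81 of 426 genes that rose with shRB (19%) and of 13 of 259 genes that fell (5.02%). The share was 11.4% of the 7123 tested genes with a window and 6.90% of all windows. Among the members of 7 lists on DNA replication that rose, 20 of 32 with a window held an E2F motif (62.5%), against 30 of the 58 tested members with a window (51.7%). A CHR motif was in 71 of the 426 windows of risen genes (16.7%), in 43 of 259 of fallen genes (16.6%) and in 16.1% of those of the tested genes. Of 52 tested mitosis genes with a window, 35 had a CHR motif (67.3%). These counts describe letters in a window and are no evidence of binding.

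Below, 5 promoters of replication genes that rose are printed from 200 bases before to 30 bases after the start site, on the strand of the gene, with each E2F motif in capitals.
MCM6 (chr2:135876414-135876643, minus strand): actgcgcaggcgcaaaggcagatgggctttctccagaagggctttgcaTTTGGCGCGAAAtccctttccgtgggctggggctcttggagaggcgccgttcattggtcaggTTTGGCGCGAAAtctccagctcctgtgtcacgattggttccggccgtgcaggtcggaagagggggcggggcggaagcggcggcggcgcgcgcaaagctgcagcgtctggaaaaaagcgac
MCM3 (chr6:52284713-52284942, minus strand): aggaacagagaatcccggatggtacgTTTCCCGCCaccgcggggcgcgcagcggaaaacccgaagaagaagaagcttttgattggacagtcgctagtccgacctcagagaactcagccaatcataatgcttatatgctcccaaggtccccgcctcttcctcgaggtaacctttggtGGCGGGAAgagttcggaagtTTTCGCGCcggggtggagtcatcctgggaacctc
TYMS (chr18:657453-657682, plus strand): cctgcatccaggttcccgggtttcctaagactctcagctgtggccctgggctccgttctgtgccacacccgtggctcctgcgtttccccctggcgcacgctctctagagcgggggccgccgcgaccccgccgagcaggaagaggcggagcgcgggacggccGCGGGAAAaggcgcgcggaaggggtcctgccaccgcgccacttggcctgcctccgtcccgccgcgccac
RFC4 (chr3:186806453-186806682, minus strand): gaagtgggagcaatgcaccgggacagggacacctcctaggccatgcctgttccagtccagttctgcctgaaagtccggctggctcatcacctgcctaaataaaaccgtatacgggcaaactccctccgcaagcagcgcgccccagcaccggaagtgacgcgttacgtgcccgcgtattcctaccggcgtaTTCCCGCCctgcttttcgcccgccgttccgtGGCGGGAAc
HELLS (chr10:94545588-94545817, plus strand): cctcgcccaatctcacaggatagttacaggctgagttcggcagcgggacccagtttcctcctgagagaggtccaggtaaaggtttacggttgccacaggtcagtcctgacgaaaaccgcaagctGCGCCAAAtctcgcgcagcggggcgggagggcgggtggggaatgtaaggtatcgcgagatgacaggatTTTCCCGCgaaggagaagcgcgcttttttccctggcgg
The next 3 belong to mitosis genes that were not called, and here capitals mark the CHR motifs.
CCNB1 (chr5:69166950-69167179, plus strand): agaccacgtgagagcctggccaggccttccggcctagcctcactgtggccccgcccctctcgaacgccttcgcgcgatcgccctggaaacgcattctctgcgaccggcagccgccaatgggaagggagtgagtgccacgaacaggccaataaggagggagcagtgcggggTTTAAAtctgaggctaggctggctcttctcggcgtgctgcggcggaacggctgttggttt
CCNB2 (chr15:59104946-59105175, plus strand): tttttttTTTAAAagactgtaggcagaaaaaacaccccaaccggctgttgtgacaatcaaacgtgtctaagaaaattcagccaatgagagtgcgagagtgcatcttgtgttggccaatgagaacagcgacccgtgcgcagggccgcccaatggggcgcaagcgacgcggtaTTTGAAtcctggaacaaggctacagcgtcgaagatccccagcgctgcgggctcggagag
KIF20A (chr5:138178912-138179141, plus strand): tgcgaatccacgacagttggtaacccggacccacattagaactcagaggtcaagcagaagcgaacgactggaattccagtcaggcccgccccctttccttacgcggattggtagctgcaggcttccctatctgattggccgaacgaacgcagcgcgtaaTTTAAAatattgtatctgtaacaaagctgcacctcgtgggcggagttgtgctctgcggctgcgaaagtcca
In MCM6 the motif TTTGGCGC overlaps TTTCGCGC on the opposite strand at each of 2 places, which begin 152 and 90 bases before the start site and give 4 matches. MCM3 had 4 matches too, TYMS 1, and RFC4 and HELLS 2 each. In CCNB1, CCNB2 and KIF20A a CHR motif begins 30, 29 and 41 bases before the start site.

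Over all probe sets, the shRB replicates correlated with r = 0.985 and the vector replicates with r = 0.992. Array medians over the series ran from 3.27 to 3.41 on the log2 scale, and the 4 arrays lay within that range, with 21.6% to 23.0% of probe sets above 5. Changes against a level near the median are lower bounds, since such levels are background. All 8 fibroblast markers, such as collagen I and vimentin genes, were present, none was called, and their average was 9.96 and 10.2 on the shRB arrays, against 9.77 and 9.78 on the vector arrays. The 6 epithelial and 4 blood markers with a probe set stayed under a log2 value of 4 on all 4 arrays. Of 6 endothelial markers, 1 passed 5 on any array of experiment 1, and it reached 6.54 on the 4 arrays. In bulk RNA, a change in the number of cells of a type and a change in RNA per cell cannot be told apart. The number of arrays limits the precision.

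The cyclins that open S phase rose. CCNE2 and CCNE1 encode the E cyclins, the partners of CDK2. CCNE2 had log2 values of 9.55 and 8.56 on the shRB arrays, against 3.87 and 4.05 on the vector arrays, a log2 change of 5.10 ± 0.42 (adjusted p = 3.54e-08). The vector values lay near background, so this change is a lower bound. CCNE1 stood at 7.09 and 6.51 on the shRB arrays, against 3.80 and 4.20 on the vector arrays, a log2 change of 2.80 ± 0.25 (adjusted p = 1.18e-07). Both shRB arrays lay above both vector arrays for each E cyclin by more than 2 log2 units. CDK4, the kinase of the D cyclins, and SKP2, a subunit of the ubiquitin ligase that removes p27, rose by 1.02 ± 0.20 and 1.99 ± 0.44 on the log2 scale. CCND2, a D-type cyclin, was the one fallen gene of these 9 tested, with log2 values of 5.70 and 4.78 on the shRB arrays, against 7.85 and 7.48 on the vector arrays and a log2 change of -2.43 ± 0.53 (adjusted p = 0.00494). The list median was 0.82, against -0.02 over all genes tested. The call of CDK4 was lost when the senescent groups alone (adjusted p = 0.0606) or the 4 compared arrays alone (adjusted p = 0.0534) were fitted, and that of SKP2 with the senescent groups alone (adjusted p = 0.0785). Without vector replicate 1, SKP2 was not called (adjusted p = 0.0876), nor was CCND2 without shRB replicate 2 (adjusted p = 0.076).

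The helicase that unwinds DNA at replication forks is a ring of MCM proteins. Of 8 MCM genes tested, 7 rose (87.5%, against 5.98% of all genes) and none fell, with a median log2 change of 2.46. MCM6 had log2 values of 10.64 and 10.31 on the shRB arrays, against 6.52 and 6.67 on the vector arrays, a log2 change of 3.88 ± 0.26 (adjusted p = 1.95e-09), or 14.7-fold. MCM5 had 7.48 and 6.31 on the shRB arrays, against 3.46 and 3.16 on the vector arrays, a log2 change of 3.59 ± 0.43 (adjusted p = 7.44e-06). MCM4 had 9.81 and 9.61 on the shRB arrays, against 6.63 and 6.88 on the vector arrays, a log2 change of 2.95 ± 0.23 (adjusted p = 2.19e-08). For these 3 subunits the lowest shRB array exceeded the highest vector array by over 2.5 log2 units. MCM3 was uneven between the shRB replicates, at 9.05 and 7.06 on the shRB arrays, against 5.99 and 5.11 on the vector arrays. Its log2 change was 2.51 ± 0.47 (adjusted p = 0.00123), and without shRB replicate 1 it was 1.51, with an adjusted p of 0.0507. MCM7 and MCM2 rose by 2.42 and 1.93 on the log2 scale, and MCM8, a paralog at work in recombination, by 1.05, a call lost without shRB replicate 1 (adjusted p = 0.182) or vector replicate 1 (adjusted p = 0.156). MCM3 (adjusted p = 0.126) and MCM8 (adjusted p = 0.105) also lost the call when the 4 compared arrays alone were fitted. MCM10, which joins the helicase at initiation, was the member not called.

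Of 15 tested genes that license and fire origins, 6 rose (40%, against 5.98% of all genes) and none fell. The median log2 change was 1.03. CDC7, the kinase that activates the MCM ring, had log2 values of 7.39 and 6.98 on the shRB arrays, against 3.87 and 3.39 on the vector arrays, a log2 change of 3.56 ± 0.24 (adjusted p = 1.95e-09). GMNN encodes geminin, the inhibitor of the loading factor CDT1. It had 9.15 and 8.75 on the shRB arrays, against 5.51 and 6.95 on the vector arrays, a log2 change of 2.72 ± 0.41 (adjusted p = 0.00012). CDT1 itself had 6.45 and 5.09 on the shRB arrays, against 3.87 and 3.55 on the vector arrays, a log2 change of 2.06 ± 0.40 (adjusted p = 0.0017). GINS2, a subunit of the active helicase, rose by 2.22 on the log2 scale. TOPBP1 and WDHD1, which act at the firing origin, rose by 1.20 and 1.03. CDT1 was not called without shRB replicate 1 (adjusted p = 0.0614). The calls of TOPBP1 and WDHD1 were lost when single arrays were left out, TOPBP1 with each of the 4 (adjusted p up to 0.147) and WDHD1 with 3 of them (up to 0.185). With the 4 compared arrays alone CDT1 and WDHD1 were not called, with adjusted p of 0.0838 and 0.0859, nor TOPBP1 with the senescent groups alone (adjusted p = 0.124). Of the origin recognition complex, 5 tested genes were not called.

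Enzymes that supply deoxynucleotides rose in 3 of 8 cases (37.5%, against 5.98% of all genes). None was lower, and the list median was 0.94 on the log2 scale. TYMS, thymidylate synthase, had log2 values of 11.47 and 11.25 on the shRB arrays, against 6.72 and 7.39 on the vector arrays, a log2 change of 4.31 ± 0.32 (adjusted p = 1.02e-08), or 19.9-fold. RRM1, the large subunit of ribonucleotide reductase, had 11.19 and 10.90 on the shRB arrays, against 8.95 and 8.82 on the vector arrays, a log2 change of 2.16 ± 0.22 (adjusted p = 1.06e-06). DUT, which removes dUTP, rose by 1.23 on the log2 scale, a call lost without shRB replicate 1 or vector replicate 2 (adjusted p = 0.0819 and 0.112). The call of DUT was lost as well with the 4 compared arrays alone (adjusted p = 0.0726) and with the senescent groups alone (adjusted p = 0.151). RRM2, the small subunit of the reductase, was not called, with log2 values of 9.68 and 8.54 on the shRB arrays, against 7.78 and 8.62 on the vector arrays and a log2 change of 0.91 ± 0.54 (adjusted p = 0.358). TK1, thymidine kinase, was not called either, at 3.42 and 4.10 on the shRB arrays, against 3.60 and 3.70 on the vector arrays.

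Among genes for the moving fork, 4 of 11 polymerase and RPA genes rose (36.4%, against 5.98% of all genes). Of 9 genes of the PCNA clamp and Okazaki fragment processing 6 rose (66.7%). None fell on either list, and the medians were 0.72 and 2.22 on the log2 scale. RFC4 belongs to the loader that places PCNA on DNA. Its log2 values were 9.75 and 9.94 on the shRB arrays, against 5.39 and 6.19 on the vector arrays, a log2 change of 4.06 ± 0.39 (adjusted p = 4.12e-07). PCLAF, a small protein bound to PCNA, had 11.16 and 10.28 on the shRB arrays, against 7.14 and 7.05 on the vector arrays, a log2 change of 3.62 ± 0.50 (adjusted p = 4.76e-05). PCNA was already high without the hairpin, at 11.71 and 11.50 on the shRB arrays, against 9.95 and 10.37 on the vector arrays, a log2 change of 1.45 ± 0.26 (adjusted p = 0.000838). FEN1, the flap nuclease, rose by 2.66 and RFC2, another loader subunit, by 2.22 on the log2 scale. RPA3, a subunit of the protein that coats single strands, had log2 values of 9.28 and 8.58 on the shRB arrays, against 5.97 and 5.90 on the vector arrays, a log2 change of 3.0 ± 0.37 (adjusted p = 1.09e-05). RPA1 rose by 1.51, PRIM1, the primase, by 1.81, and POLD3, of polymerase delta, by 1.42 on the log2 scale. RNASEH2A, which removes ribonucleotides, differed widely between the shRB replicates (7.39 and 5.0 in shRB cells, against 3.74 and 3.51 in vector cells), and its log2 change of 2.57 dropped to 1.37 without shRB replicate 1 (adjusted p = 0.198). It was also not called without vector replicate 2 (adjusted p = 0.0701). PRIM1 was not called without shRB replicate 1 (adjusted p = 0.0982), and POLD3 was called only without shRB replicate 2 of the 4 runs that left 1 array out. PRIM1 (adjusted p = 0.115) and RNASEH2A (adjusted p = 0.141) were not called with the 4 compared arrays alone.

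Chromatin is rebuilt behind the fork. Of 8 genes for this work 7 rose (87.5%, against 5.98% of all genes), with a median log2 change of 1.33. HELLS, a remodeller needed for DNA methylation, had log2 values of 9.14 and 7.86 on the shRB arrays, against 4.85 and 4.78 on the vector arrays, a log2 change of 3.68 ± 0.53 (adjusted p = 6.67e-05). UHRF1, which brings the DNA methyltransferase to new DNA, had 9.95 and 9.52 on the shRB arrays, against 6.54 and 7.05 on the vector arrays, a log2 change of 2.94 ± 0.48 (adjusted p = 0.000304). NASP, a histone chaperone, rose by 2.26 and HAT1, which acetylates new histone H4, by 1.49 on the log2 scale. SLBP, which binds the stem-loop of histone mRNAs, rose by 1.18 ± 0.18, DNMT1 by 0.97 ± 0.22 and CHAF1A by 0.88 ± 0.25. DNMT1 was not called without shRB replicate 1 (adjusted p = 0.0818) or vector replicate 2 (adjusted p = 0.0549), and CHAF1A not without any 1 of the 4 arrays (adjusted p from 0.0623 to 0.21). With the 4 compared arrays alone SLBP, DNMT1 and CHAF1A were not called, with adjusted p of 0.052, 0.0767 and 0.0977.

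Of 7 checkpoint genes 4 rose (57.1%, against 5.98% of all genes). TIPIN, which protects paused forks, had log2 values of 8.76 and 8.51 on the shRB arrays, against 4.95 and 5.03 on the vector arrays, a log2 change of 3.64 ± 0.39 (adjusted p = 1.52e-06). RAD1, WEE1 and CHEK1, all of the checkpoint that delays division, rose by 0.94, 1.13 and 0.96 on the log2 scale. RAD1 was not called without shRB replicate 1 (adjusted p = 0.076). CHEK1 was called only without shRB replicate 2, and WEE1 only without vector replicate 2, among the 4 runs with 1 array left out. With the 4 compared arrays alone TIPIN was the one called gene of the 7, and without the filter on low values WEE1 and CHEK1 were not called (adjusted p = 0.074 and 0.0786). Taking the 7 lists on replication as one, the median log2 change was 1.09 and 57 of 66 changes were above 0. Of the 66 tested genes 37 rose (56.1%, against 5.98% of all genes) and none fell. The count was 24 without shRB replicate 1, 29 without vector replicate 2, 30 without vector replicate 1 and 35 without shRB replicate 2, and 24 with the 4 compared arrays alone. Of the 87 genes listed, 85 had a probe set and 66 passed the filter on low values. With no filter 36 of the 85 rose, with a median log2 change of 0.73. In the 7 single lists the share of tested genes that rose ran from 36.4% to 87.5%.

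**Figure D1:**
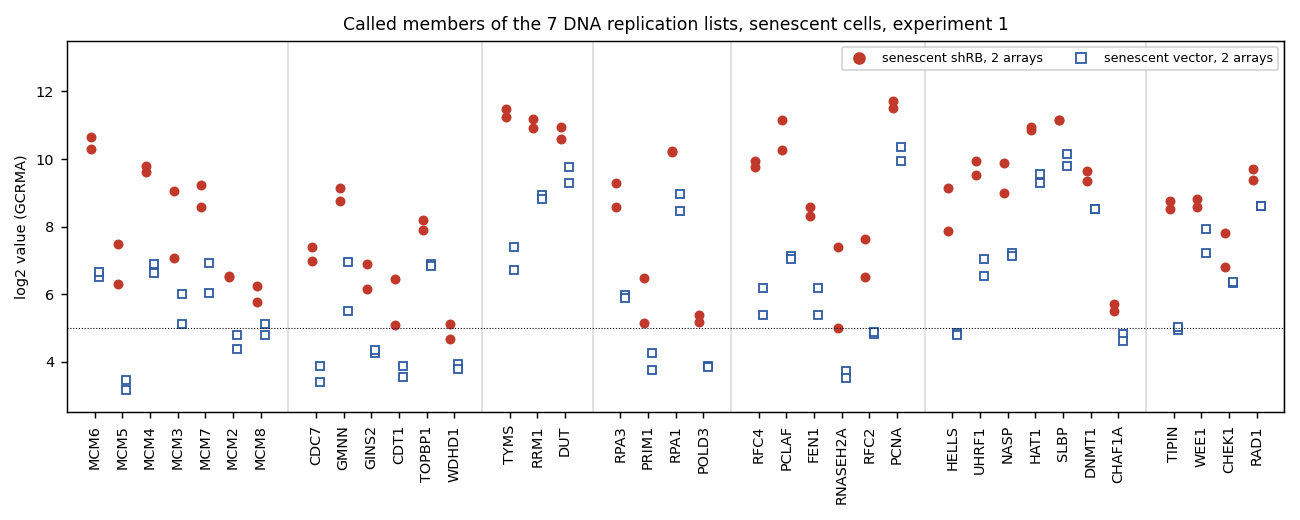
Log2 values of the 37 called members of the 7 DNA replication lists on the 2 senescent shRB arrays (filled circles) and the 2 senescent vector arrays (open squares) of experiment 1, with grey lines between lists and a dotted line at the filter value of 5. In each gene the shRB points lie above the vector points, and the replicates of RNASEH2A and MCM3 lie far apart in shRB cells.

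Of 9 tested recombination and Fanconi genes 4 rose (44.4%, against 5.98% of all genes) and none fell. Of 3 tested mismatch repair genes 2 rose (66.7%). FANCL, the ubiquitin ligase of the Fanconi pathway, had log2 values of 10.38 and 9.74 on the shRB arrays, against 6.04 and 6.39 on the vector arrays, a log2 change of 3.85 ± 0.36 (adjusted p = 2.01e-07). FANCI, which that ligase modifies together with its partner, had 8.95 and 7.75 on the shRB arrays, against 5.19 and 5.68 on the vector arrays, a log2 change of 2.92 ± 0.42 (adjusted p = 6.87e-05). FANCG rose by 1.44 and RMI2, of the complex that dissolves crossovers, by 1.07 on the log2 scale. RMI2 was not called without shRB replicate 1 (adjusted p = 0.376) or vector replicate 2 (adjusted p = 0.393). It was not called with the 4 compared arrays alone (adjusted p = 0.182) or with no filter on low values (adjusted p = 0.0701). MSH6, of mismatch recognition, had 9.72 and 10.03 on the shRB arrays, against 6.75 and 7.92 on the vector arrays, a log2 change of 2.54 ± 0.30 (adjusted p = 6.70e-06), and PMS1 rose by 1.55. PMS1 was not called without shRB replicate 1 (adjusted p = 0.0729) or vector replicate 2 (adjusted p = 0.0959).

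Genes of chromatin that mark the senescent nucleus included 3 that rose of 17 (17.6%), against 5.98% of all genes. LMNB1, lamin B1, is lost from senescent nuclei. Its log2 values were 7.15 and 6.57 on the shRB arrays, against 4.18 and 4.33 on the vector arrays, a log2 change of 2.60 ± 0.49 (adjusted p = 0.00113). EZH2, the Polycomb methyltransferase, had 7.82 and 5.84 on the shRB arrays, against 3.35 and 3.94 on the vector arrays, a log2 change of 3.19 ± 0.55 (adjusted p = 0.000578). CBX5, heterochromatin protein HP1 alpha, had 9.39 and 7.39 on the shRB arrays, against 4.26 and 5.15 on the vector arrays, a log2 change of 3.68 ± 0.67 (adjusted p = 0.000871). For EZH2 and CBX5 the first shRB array was higher than the second by about 2 log2 units, and both lay above the vector arrays. With the 4 compared arrays alone LMNB1 was the one called gene of the 17, and EZH2 and CBX5 had adjusted p of 0.0671 and 0.053.

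Few mitosis genes were called. Of 65 tested genes on 3 lists (mitotic cyclins and kinases, mitotic kinesins, and the centromere), 5 rose (7.69%), close to the 5.98% of all genes, and 1 fell, with a median log2 change of -0.07. CCNB1, cyclin B1, had log2 values of 6.24 and 6.11 on the shRB arrays, against 6.12 and 6.62 on the vector arrays, a log2 change of -0.19 ± 0.60 (adjusted p = 0.908). CDK1, its kinase, had 5.48 and 6.27 on the shRB arrays, against 5.65 and 6.16 on the vector arrays, a log2 change of -0.03 ± 0.64 (adjusted p = 0.989). TOP2A, the topoisomerase of condensing chromosomes, had 4.63 and 5.17 on the shRB arrays, against 4.71 and 4.85 on the vector arrays, a log2 change of 0.12 ± 0.64 (adjusted p = 0.951). AURKA, a spindle kinase, had log2 values of 7.42 and 7.58 on the shRB arrays, against 7.12 and 7.70 on the vector arrays. In each of these the groups overlapped. CCNB2, BUB1, CDC20 and KIF20A lay under a log2 value of 4 in both groups. No kinesin of 10 was called, and 1 of 10 changes was above 0, with a median log2 change of -0.13. Most kinesins were dim, since only 3 had a mean above 5 over experiment 1.

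Of the 5 mitosis genes that rose, 4 belong to the centromere list. CENPK, a part of the inner kinetochore, had log2 values of 9.26 and 8.79 on the shRB arrays, against 4.47 and 4.82 on the vector arrays, a log2 change of 4.38 ± 0.50 (adjusted p = 4.35e-06). CENPU, of the same network, had 7.78 and 7.52 on the shRB arrays, against 5.35 and 5.54 on the vector arrays, a log2 change of 2.21 ± 0.47 (adjusted p = 0.00359). DSN1 and ZWINT, of the outer kinetochore, rose by 1.64 and 1.25 on the log2 scale, and the kinase MELK by 1.95. ZWINT was not called without any 1 of the 4 arrays (adjusted p up to 0.211), nor DSN1 without shRB replicate 1 (adjusted p = 0.0507). With the mean of all probe sets CENPU changed by 0.70 and was not called (adjusted p = 0.0809), nor was DSN1 with the 4 compared arrays alone (adjusted p = 0.0571) or ZWINT with no filter on low values (adjusted p = 0.0717). CKS2, a small protein that binds CDKs, fell, with 8.84 and 8.77 on the shRB arrays, against 10.38 and 10.83 on the vector arrays and a log2 change of -1.80 ± 0.23 (adjusted p = 1.96e-05). Among 15 condensin and cohesin genes 3 rose (20%, against 5.98% of all genes). These were SMC1A, SMC2 and NCAPG2, by 1.64, 1.29 and 1.47 on the log2 scale. SMC2 was not called without shRB replicate 1 (adjusted p = 0.105) or vector replicate 2 (0.0584), and NCAPG2 was called only without shRB replicate 2. SMC2 had an adjusted p of 0.085 with the 4 compared arrays alone.

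**Figure D2:**
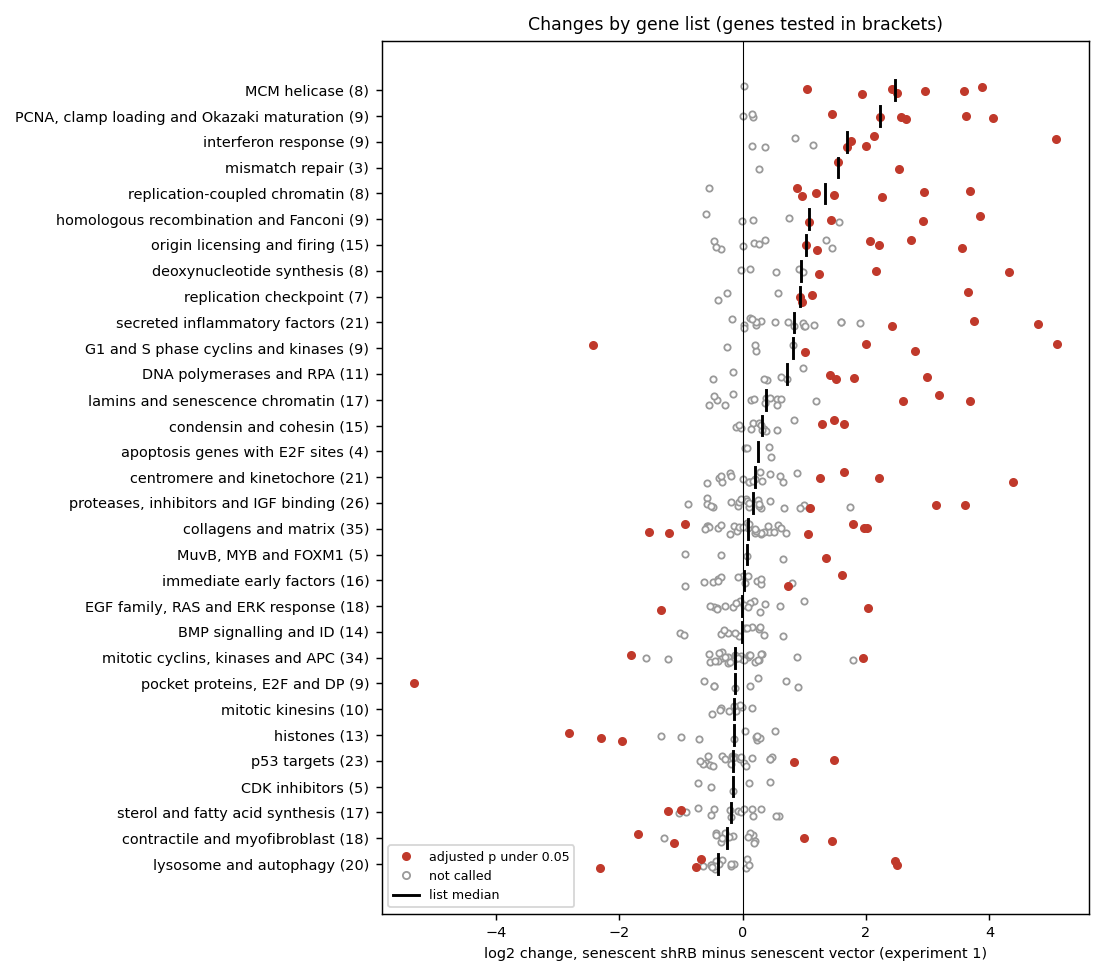
Log2 change, senescent shRB minus senescent vector in experiment 1, of each tested gene (points) on the lists named at the left, with the list median as a bar. Filled points had an adjusted p under 0.05, lists are ordered by median, and the MCM list stands highest at 2.46 while the mitosis lists lie near 0.

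None of 5 tested CDK inhibitor genes was called, and their median log2 change was -0.16. CDKN1A, which encodes p21, had log2 values of 12.20 and 11.56 on the shRB arrays, against 12.05 and 12.04 on the vector arrays. For CDKN2A, which encodes p16 and ARF, they were 9.67 and 9.56 on the shRB arrays, against 9.22 and 9.12 on the vector arrays. For CDKN2B, which encodes p15, they were 10.48 and 10.08 on the shRB arrays, against 10.49 and 11.08 on the vector arrays. All 3 were well expressed in both groups. Of 9 pocket protein, E2F and DP genes RB1 alone was called, and E2F7, an atypical E2F that represses, was high in both groups (10.70 and 10.97 in shRB cells, against 10.65 and 10.78 in vector cells). Of 23 p53 targets, DDB2 and XPC, both of nucleotide excision repair, rose (8.7%, against 5.98% of all genes), by 1.49 and 0.84 on the log2 scale, and XPC was called only without shRB replicate 2 among the runs with 1 array left out. Neither was called with the 4 compared arrays alone (adjusted p = 0.0531 for DDB2 and 0.128 for XPC).

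Of 13 tested histone genes 3 fell (23.1%, against 3.77% of all genes) and none rose, with a median log2 change of -0.14. H2BC4 had log2 values of 4.36 and 4.11 on the shRB arrays, against 6.35 and 7.74 on the vector arrays, a log2 change of -2.81 ± 0.35 (adjusted p = 1.31e-05). H1-2, a linker histone, had 4.88 and 4.77 on the shRB arrays, against 7.06 and 7.15 on the vector arrays, a log2 change of -2.29 ± 0.40 (adjusted p = 0.000654). H4C8, a core histone gene, had 6.33 and 5.92 on the shRB arrays, against 7.67 and 8.49 on the vector arrays, a log2 change of -1.96 ± 0.57 (adjusted p = 0.0298). With no filter on low values H4C8 was not called (adjusted p = 0.0608). H4C8 was called only without vector replicate 1 when single arrays were left out. These genes have near-identical copies to which probes may bind, so single histone genes are uncertain.

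IL1B, IL6 and CXCL8, which encode the cytokines that mark the senescent secretome, were not called. IL1B had log2 values of 12.87 and 13.23 on the shRB arrays, against 12.81 and 12.69 on the vector arrays. IL6 had 12.58 and 12.43 on the shRB arrays, against 11.96 and 11.06 on the vector arrays. CXCL8 had 12.98 and 12.98 on the shRB arrays, against 12.82 and 12.71 on the vector arrays. In each of the 3 genes the shRB arrays lay above the vector arrays, by less than 1 log2 unit between the nearest arrays. On all 4 arrays the values of IL1B and CXCL8 lay close to the highest value of the array, which leaves little room for a rise. Whether signal near that limit compressed their changes was not tested, so the missing calls do not show that shRB left these genes unchanged. Of 21 tested inflammatory factors 3 rose (14.3%, against 5.98% of all genes) and none fell, 20 of 21 changes were above 0, and the median log2 change was 0.83. With a mean above 5 as the filter, 1 of 17 tested factors rose. IL33, an alarmin held in the nucleus, had 10.06 and 8.22 on the shRB arrays, against 5.06 and 3.65 on the vector arrays, a log2 change of 4.79 ± 0.73 (adjusted p = 0.000137). CXCL6, a neutrophil chemokine, had 11.68 and 11.89 on the shRB arrays, against 9.57 and 9.17 on the vector arrays, a log2 change of 2.41 ± 0.41 (adjusted p = 0.000471). CSF3, which encodes G-CSF, had 8.78 and 8.60 on the shRB arrays, against 5.19 and 4.70 on the vector arrays, a log2 change of 3.75 ± 1.02 (adjusted p = 0.0202), and this call was lost without any 1 of the 4 arrays (adjusted p from 0.0671 to 0.144).

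Further secreted factors, and protease inhibitors, outside that list stood among the 30 largest rises. PPBP, a platelet chemokine, had log2 values of 9.72 and 8.95 on the shRB arrays, against 4.51 and 4.59 on the vector arrays, a log2 change of 4.79 ± 0.41 (adjusted p = 5.24e-08). CXCL10, a chemokine that interferon induces, had 10.54 and 9.95 on the shRB arrays, against 6.05 and 4.73 on the vector arrays, a log2 change of 4.85 ± 1.15 (adjusted p = 0.00834). It was not called without shRB replicate 1 (adjusted p = 0.0672) or vector replicate 2 (adjusted p = 0.112). With the senescent groups alone its adjusted p was 0.0518. ESM1, a secreted proteoglycan, had 11.79 and 11.20 on the shRB arrays, against 8.14 and 7.66 on the vector arrays, a log2 change of 3.60 ± 0.24 (adjusted p = 1.95e-09). SERPINB4 and SERPINB3, protease inhibitors with nearly the same sequence, rose by 5.04 and 3.51 on the log2 scale, and their probe sets may read each other. CST1, a cystatin, differed between the vector replicates (11.09 and 10.61 in shRB cells, against 8.08 and 4.73 in vector cells), with a log2 change of 4.45 ± 0.88 (adjusted p = 0.00188), and 2.77 without vector replicate 2 (adjusted p = 0.0859). Of 26 tested proteases, inhibitors and IGF binding proteins, ESM1 and 2 others rose (11.5%, against 5.98% of all genes) and none fell, and with the senescent groups alone or the 4 compared arrays alone 1 was called. MMP12, a macrophage elastase, rose by 3.14 and MMP14, a membrane-bound collagenase, by 1.09, but MMP12 was called only without shRB replicate 2 (log2 values 9.15 and 6.12 in shRB cells, against 4.24 and 4.76 in vector cells), and MMP14 changed by 0.35 with the mean of all probe sets (adjusted p = 0.339) and was not called without shRB replicate 1 (adjusted p = 0.168) or vector replicate 1 (adjusted p = 0.372).

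Interferon response genes rose in 5 of 9 tested cases (55.6%, against 5.98% of all genes), with none lower and a median log2 change of 1.70. IFI6 had log2 values of 10.28 and 6.47 on the shRB arrays, against 3.31 and 3.3 on the vector arrays, a log2 change of 5.07 ± 0.80 (adjusted p = 0.000212). The shRB replicates differ by almost 4 log2 units, and the change was 3.17 without the first and 6.97 without the second, called in both cases. ISG20, a ribonuclease, had 6.18 and 5.08 on the shRB arrays, against 3.56 and 3.70 on the vector arrays, a log2 change of 2.0 ± 0.29 (adjusted p = 7.32e-05). IFIT3, ISG15 and IRF9 rose by 2.12, 1.70 and 1.75, and the first shRB array was the higher by 1.0 to 1.4 log2 units for each of the 3. Without shRB replicate 1 the calls of IFIT3, ISG15 and IRF9 were lost, with adjusted p of 0.146, 0.232 and 0.275. They were also lost without vector replicate 1 or 2, at adjusted p of 0.0551 to 0.148. Of 26 genes listed, 24 had a probe set, and 15 of these lay under the filter. With no filter 6 of 24 rose, with a median log2 change of 0.58, and with the 4 compared arrays alone none of the 9 was called.

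Several of the largest rises belong to none of the lists. TMEM106C, a membrane protein, had log2 values of 10.13 and 9.34 on the shRB arrays, against 5.20 and 5.62 on the vector arrays, a log2 change of 4.32 ± 0.36 (adjusted p = 3.64e-08). IDH2, the mitochondrial isocitrate dehydrogenase, had 9.25 and 8.83 on the shRB arrays, against 4.92 and 4.93 on the vector arrays, a log2 change of 4.12 ± 0.28 (adjusted p = 1.95e-09). RGS5, which shortens G protein signals, had 9.06 and 9.44 on the shRB arrays, against 4.96 and 5.38 on the vector arrays, a log2 change of 4.08 ± 0.39 (adjusted p = 3.37e-07). PSIP1, a chromatin reader known as LEDGF, rose by 3.86, RASD1, a small ras-like protein, by 3.70, and GJB2, connexin 26, by 3.97 on the log2 scale. TNP1, best known as a sperm nuclear protein, rose by 3.94 and PDZK1, a scaffold of transporters, by 3.40. NIBAN1 rose by 3.70, but the call was lost without shRB replicate 1, vector replicate 1 or vector replicate 2 (adjusted p up to 0.133).

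Fewer falls than rises reached 4-fold. Behind RB1, the largest fall was NEXN, an actin-binding protein, with log2 values of 6.59 and 7.09 on the shRB arrays, against 9.58 and 9.86 on the vector arrays and a log2 change of -2.88 ± 0.21 (adjusted p = 5.29e-09). AJUBA, a LIM protein of cell junctions, had 6.65 and 6.29 on the shRB arrays, against 8.17 and 9.08 on the vector arrays, a log2 change of -2.16 ± 0.30 (adjusted p = 4.55e-05). CCN2, the connective tissue growth factor, and CCN1, its relative, fell by 1.69 and 1.12 on the log2 scale. CCN1 was not called without shRB replicate 2 (adjusted p = 0.104) or vector replicate 2 (adjusted p = 0.0584). Of 18 contractile genes 2 rose and 2 fell (11.1% each, against 5.98% and 3.77% of all genes), and with the 4 compared arrays alone ACTG2 was the one called. ACTG2, a smooth muscle actin, and TGFB1I1, an adhesion protein, rose by 1.45 and 1.0. Both were not called without shRB replicate 1 (adjusted p = 0.102 and 0.0642) or vector replicate 2 (adjusted p = 0.0784 and 0.111).

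Of 35 tested matrix genes 4 rose (11.4%, against 5.98% of all genes) and 3 fell (8.57%, against 3.77%). With the 4 compared arrays alone 3 rose and none fell, and the adjusted p of LOX was 0.0518. BGN, the proteoglycan biglycan, had log2 values of 8.20 and 8.25 on the shRB arrays, against 6.23 and 6.18 on the vector arrays, a log2 change of 2.02 ± 0.35 (adjusted p = 0.000632). LOX, which cross-links collagen, had 9.91 and 9.59 on the shRB arrays, against 11.05 and 10.85 on the vector arrays, a log2 change of -1.20 ± 0.21 (adjusted p = 0.000745). COL7A1, THBS2 and COL6A2 rose by 1.98, 1.80 and 1.06, and LUM and THBS1 fell by 1.51 and 0.94, on the log2 scale. With the mean of all probe sets COL6A2 and LUM were not called (adjusted p = 0.193 and 0.0706). Each of these 5 calls was lost without at least 2 of the 4 arrays, with adjusted p of 0.058 to 0.334. Among regulators of the matrix, RECK, an inhibitor of metalloproteases, had 5.73 and 4.42 on the shRB arrays, against 7.57 and 8.05 on the vector arrays, a log2 change of -2.74 ± 0.34 (adjusted p = 1.16e-05), and ADAMTS1, a protease, fell by 2.07 (adjusted p = 0.0613 without vector replicate 2).

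Other falls covered signalling and metabolism. FGF5, a growth factor, had log2 values of 4.42 and 4.15 on the shRB arrays, against 6.50 and 6.68 on the vector arrays, a log2 change of -2.31 ± 0.35 (adjusted p = 0.000135). PDE5A, which breaks down cyclic GMP, had 6.09 and 6.04 on the shRB arrays, against 8.12 and 8.26 on the vector arrays, a log2 change of -2.12 ± 0.27 (adjusted p = 1.97e-05). DKK1, a Wnt antagonist, fell by 2.23 and MCOLN1, a lysosomal cation channel, fell by 2.32 on the log2 scale. SLC25A20, the mitochondrial carnitine carrier, fell by 2.15, and PDK4, a kinase that shuts pyruvate dehydrogenase, fell by 2.09 on the log2 scale. With the mean of all probe sets PDK4 changed by -0.70 and was not called (adjusted p = 0.121). DKK1 was not called without shRB replicate 2 (adjusted p = 0.0719). Of 20 lysosome and autophagy genes 2 rose (10%, against 5.98% of all genes) and 3 fell (15%, against 3.77%). With the 4 compared arrays alone 1 did so each way. CTSS and GUSB, a protease and a glycosidase, rose by 2.51 and 2.46 while MCOLN1, LAMP2 and MAP1LC3B fell. LAMP2 and MAP1LC3B fell by 0.68 and 0.76 and were each not called without vector replicate 2 (adjusted p = 0.242 and 0.0817), nor LAMP2 without shRB replicate 1 (adjusted p = 0.116) and MAP1LC3B without shRB replicate 2 (adjusted p = 0.111).

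Several other falls stood among the 30 largest. INSC, which orients the spindle in dividing neural cells of the fly, had log2 values of 5.41 and 5.60 on the shRB arrays, against 7.73 and 8.77 on the vector arrays, a log2 change of -2.75 ± 0.34 (adjusted p = 1.20e-05). GLT8D2 had 3.79 and 4.59 on the shRB arrays, against 6.34 and 7.44 on the vector arrays, a log2 change of -2.71 ± 0.40 (adjusted p = 9.83e-05). PCDH9, a protocadherin, had 6.36 and 5.65 on the shRB arrays, against 8.54 and 8.11 on the vector arrays, a log2 change of -2.32 ± 0.48 (adjusted p = 0.0028). ALG14, of N-glycan assembly, fell by 2.53, RBMS3, an RNA-binding protein, fell by 2.24, and HSPB8, a small heat shock protein, fell by 2.18 on the log2 scale. The calls of FIBIN, LCE3D, CLPTM1, HSPB8, MAP3K7CL, DOCK9, ATP8B1 and LPCAT2 were each lost without at least 1 of the 4 arrays, while those of INSC, GLT8D2, PCDH9, ALG14 and RBMS3 held in all 4 runs. With the mean of all probe sets RBMS3 changed by -0.50 and was not called (adjusted p = 0.0754), nor were FIBIN and ATP8B1 (adjusted p = 0.0786 and 0.49). ALG14 was not called with the 4 compared arrays alone (adjusted p = 0.0595).

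The remaining lists held few called genes, and their shares stood between 0 and 20% in either direction, against 5.98% higher and 3.77% lower of all genes. Of 17 sterol and fatty acid genes LSS and SC5D, enzymes late in cholesterol synthesis, fell by 1.21 and 1.0 on the log2 scale, with a list median of -0.18. Of 16 immediate early genes EGR3 and JUND, transcription factors, rose by 1.61 and 0.73, with a median of 0.03. Of 18 genes of the EGF family and the ERK response, NRG1, a ligand of ERBB receptors, rose by 2.04 and DUSP4, a phosphatase of ERK, fell by 1.33, with a median near 0. RBBP4, a histone chaperone of the MuvB complex and of other complexes, rose by 1.35 among 5 genes for MuvB, MYB and FOXM1. With the mean of all probe sets LSS, SC5D, JUND and NRG1 were not called (adjusted p from 0.0554 to 0.526). Of these 7 calls only EGR3 held without any 1 of the 4 arrays and with the 4 compared arrays alone. None of 14 genes of BMP signalling and of 4 apoptosis genes with E2F sites was called.

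Levels were next set against growing vector cells, whose labels name no ras, so that ras and growth state cannot be told apart here. On the shRB arrays MCM6 averaged a log2 level of 10.47 ± 0.24, against 9.58 ± 0.06 in growing vector cells, and TYMS 11.36 ± 0.16, against 10.98 ± 0.15 (SD, n = 2 each). Of the 66 replication genes, 11 were higher in senescent shRB than in growing vector cells (12.2% of all genes) and 7 lower (18.5% of all genes), with a median log2 change of 0.23. CDC7 was higher by 3.17 ± 0.24 (adjusted p = 1.72e-09) and TIPIN by 2.87, while TK1 was lower, at a log2 change of -3.43 ± 0.39 (adjusted p = 6.53e-07). Of the 65 mitosis genes, 50 were lower in senescent shRB cells and 1 was higher, with a median log2 change of -2.17. CCNB1 differed by -4.15 ± 0.60 (adjusted p = 1.80e-05) and TOP2A by -4.59 ± 0.64 (adjusted p = 1.19e-05) on the log2 scale. In senescent vector against growing vector cells, 36 of 66 replication genes and 51 of 65 mitosis genes were lower, with medians of -0.91 and -2.38, where 16.2% of all genes were lower. Against growing vector cells 2611 of all genes (30.7%) were called in senescent shRB cells, 1036 higher and 1575 lower, and 2166 (25.4%) in senescent vector cells, 784 higher and 1382 lower (9.21% and 16.2%). After quantile normalization these splits were 1378 to 1384 and 1096 to 1136. Without growing vector replicate 2 the totals were 1641 and 1337, and the second was 1420 without senescent vector replicate 1. The 2 comparisons share the growing vector arrays, and the second shares the senescent vector arrays with the effect of shRB.

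**Figure D3:**
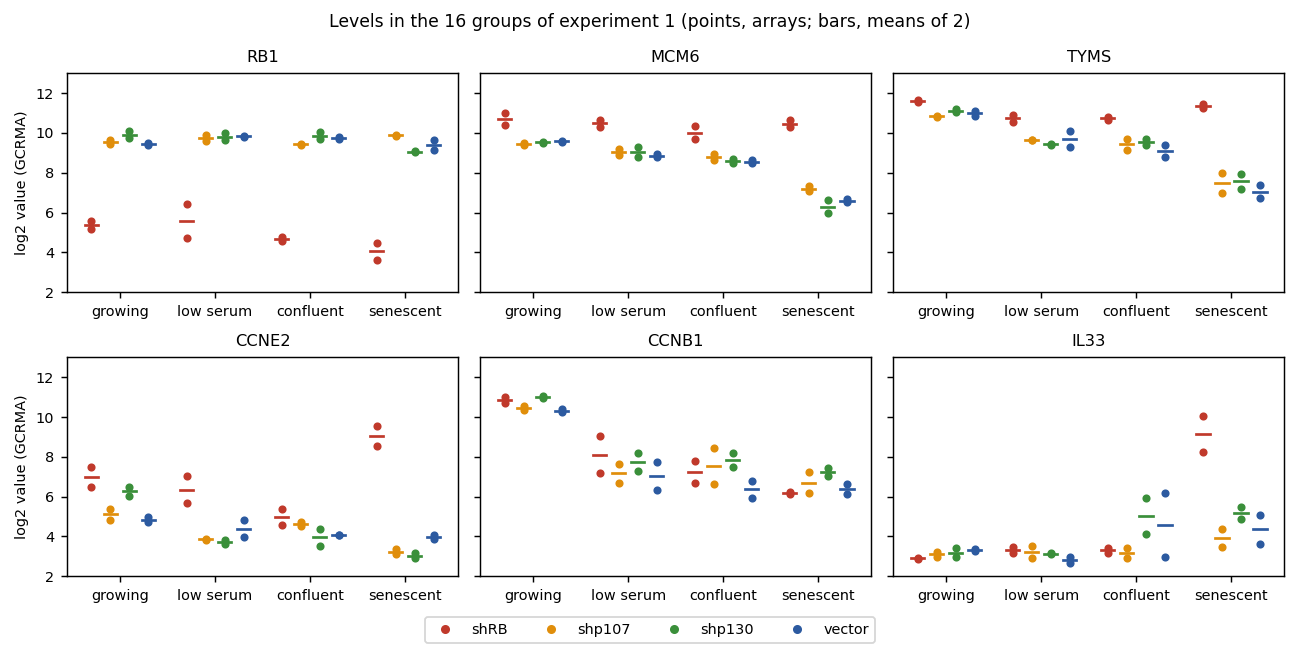
Log2 values of 6 genes on the 32 arrays of experiment 1, by growth state (x axis) and construct (colour, with shRB at the left and vector at the right of each state), with points for arrays and bars for the means of 2. MCM6 and TYMS are high in shRB cells of every state and low in the other senescent groups, CCNB1 is high in growing cells with any construct, and IL33 is highest in senescent shRB cells.

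The effect of shRB was then compared between senescent cells and the other states of experiment 1, each against its own vector cells. The difference is signed, so it can also come from a change in the other state alone. The effect was more positive in senescent than in growing cells for 114 genes and more negative for 55 (1.34% and 0.646% of all genes). For low serum the counts were 107 and 42 (1.26% and 0.493%), and for confluence 710 and 476 (8.34% and 5.59%). After quantile normalization the last split was 657 and 680, and that scaling moved the median difference of all genes to -0.04 on the log2 scale, against 0.08 in the deposited scale. Without vector replicate 2 of the senescent cells, 92 genes differed from growing cells and 85 from low serum. The difference from growing cells was called for 86 genes without growing vector replicate 1, 94 without growing shRB replicate 1 and 84 without growing shRB replicate 2. The difference from low serum was called for 78 genes without low-serum vector replicate 1 and 90 without senescent shRB replicate 1, and that from confluence for 736 without confluent shRB replicate 1.

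Among the 66 replication genes, 12 had a more positive effect in senescent than in growing cells, 11 than in low serum and 20 than at confluence, and none had a more negative one. TYMS changed with shRB by 4.31 in senescent, 0.63 in growing, 1.04 in low-serum and 1.64 in confluent cells on the log2 scale. The difference between senescent and growing cells was 3.68 ± 0.46 (adjusted p = 4.99e-05). MCM6 changed by 3.88, 1.11, 1.62 and 1.46 in the same order of states, with a difference from growing cells of 2.77 ± 0.37 (adjusted p = 0.000117). For CCNE2 the changes were 5.10, 2.15, 1.97 and 0.90, and the difference from growing cells was 2.95 ± 0.59 (adjusted p = 0.00873). Their levels in growing vector cells were 10.98 ± 0.15 for TYMS, 9.58 ± 0.06 for MCM6 and 4.84 ± 0.17 for CCNE2 (log2 mean ± SD, n = 2). Within each other state, shRB against vector called 1 replication gene higher in growing, 2 in low-serum and 11 in confluent cells, of 7, 5 and 596 higher in all (0.0822%, 0.0587% and 7% of all genes). In all, 9, 2 and 890 genes fell with shRB in those states (0.106%, 0.0235% and 10.5%), none of them a replication gene.

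For the mitosis genes, the median log2 change with shRB was -0.07 in senescent, 0.68 in growing, 0.36 in low-serum and 0.29 in confluent cells. In growing cells 64 of 65 changes were above 0 and none was called, against 28 of 65 above 0 in senescent cells. The difference between states was called for 4 genes against growing cells, CKS2, KIF4A and CDCA8 with a more negative effect in senescent cells and CENPK with a more positive one. KIF4A, a chromosome kinesin, differed by -2.0 ± 0.50 (adjusted p = 0.0408) and CDCA8, of the chromosomal passenger complex, by -1.44 ± 0.36 (adjusted p = 0.0408).

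**Figure D4:**
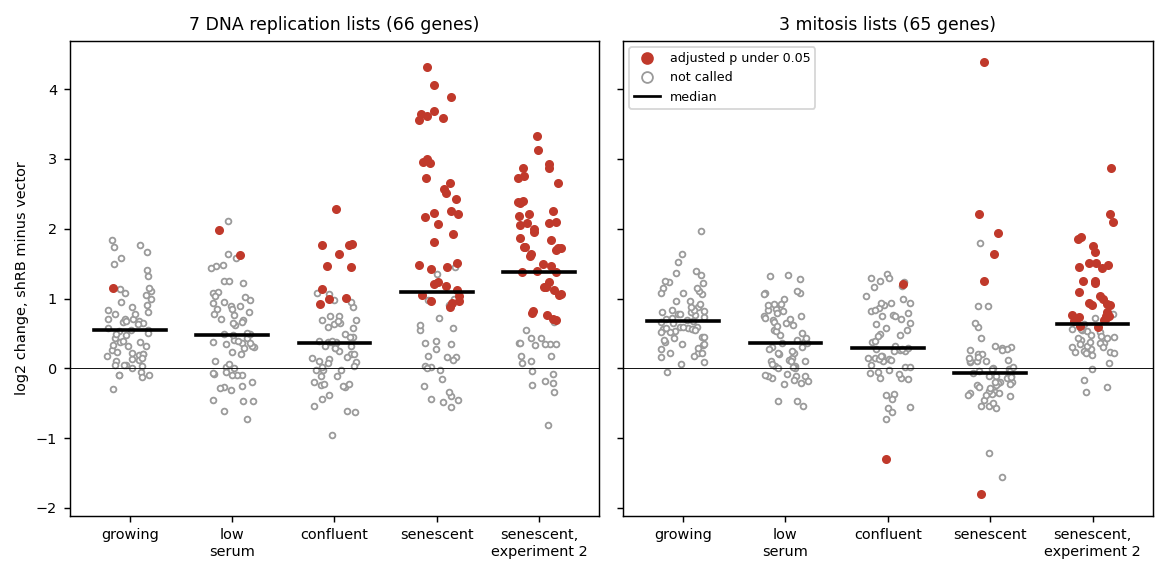
Log2 change with shRB against vector for the 66 tested replication genes (left) and the 65 tested mitosis genes (right) in 3 other states of experiment 1, in senescent cells of experiment 1 and in senescent cells of experiment 2, with medians as bars and called genes filled. The replication median is highest in the senescent cells of both experiments (1.09 and 1.39), and the mitosis median is -0.07 in experiment 1 and 0.64 in experiment 2.

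Beyond the cell cycle, large differences between states were found for secreted factors and RGS5. IL33 changed by 4.79 in senescent, -0.42 in growing, 0.50 in low-serum and -1.28 in confluent cells on the log2 scale, and the difference from growing cells was 5.21 ± 1.03 (adjusted p = 0.00789). CXCL6 changed by 2.41 in senescent and -5.92 in confluent cells, a difference of 8.33 ± 0.58 (adjusted p = 2.98e-09). For RGS5 the changes were 4.08 and -7.95, a difference of 12.02 ± 0.55 (adjusted p = 2.29e-12). In confluent vector cells RGS5 averaged 11.32 ± 1.03 and CXCL6 11.10 ± 1.27 (log2 mean ± SD, n = 2), and for both genes the fall in confluent cells was larger than the rise in senescent cells.

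Fewer replication genes were called with the hairpins against the other pocket proteins, each set against vector in senescent cells. With shp107, 667 genes were called (7.84%), of which 233 rose and 434 fell (2.74% and 5.1% of all genes), and of the 66 replication genes 1 rose and 3 fell. With shp130, 142 genes were called (1.67%), of which 66 rose and 76 fell (0.775% and 0.893%), with 5 replication genes higher and none lower. MCM6 changed by 0.61 ± 0.26 (adjusted p = 0.17) with shp107 and by -0.29 ± 0.26 (adjusted p = 0.796) with shp130 on the log2 scale. IL33 changed by -0.43 ± 0.73 (adjusted p = 0.794) with shp107 and by 0.81 ± 0.73 (adjusted p = 0.796) with shp130. How far these hairpins lowered RBL1 and RBL2 is not given here. RBL1 was already near background in senescent vector cells, with log2 values of 3.44 and 3.24. Both comparisons share the vector arrays with the effect of shRB, and the direct differences between hairpins follow.

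Hairpins were then compared directly within senescent cells. Against shp107, 984 genes were higher in shRB cells and 939 lower (11.6% and 11% of all genes), and against shp130, 670 and 400 (7.87% and 4.7%). Of the 66 replication genes, 37 were higher in shRB than in shp107 cells and 2 lower, and 34 were higher than in shp130 cells and 4 lower. MCM6 had log2 means of 10.47 in shRB, 7.20 ± 0.16 in shp107 and 6.30 ± 0.46 in shp130 cells (SD, n = 2), with differences of 3.27 ± 0.26 (adjusted p = 2.93e-08) and 4.17 ± 0.26 (adjusted p = 6.55e-10). PCLAF differed by 5.39 ± 0.50 (adjusted p = 3.06e-07) from shp107 and 4.81 ± 0.50 (adjusted p = 1.01e-06) from shp130. CCNE2 was higher by 5.82 and 6.03. Mitosis genes were split, 9 higher and 1 lower against shp107 and 6 higher and 9 lower against shp130, where CKS2 differed by -2.56 ± 0.23 (adjusted p = 1.22e-07) and MAD2L1, a spindle checkpoint protein, by -2.06 ± 0.60 (adjusted p = 0.0257). The count against shp107 was 567 without shp107 replicate 2, 1247 without shRB replicate 1 and 1078 without shRB replicate 2. Against shp130 it was 537 without shRB replicate 1, 534 without shp130 replicate 1 and 555 without shp130 replicate 2. These comparisons share the senescent shRB arrays with the effect of shRB.

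Experiment 2 repeated senescent shRB against senescent vector on 4 other arrays. RB1 was lowered less there, with log2 means of 6.86 ± 0.31 in shRB cells, against 9.14 ± 0.10 in vector cells (SD, n = 2), a log2 change of -2.28 ± 0.21 (adjusted p = 0.000457). The difference between the experiments was -3.04 ± 0.48 (adjusted p = 0.00154). In experiment 2, 1710 genes were called (20.1%), of which 924 rose and 786 fell (10.9% and 9.24%), and these counts were 265 and 86 without vector replicate 1, 233 and 56 without vector replicate 2 and 480 and 351 without shRB replicate 2. Of the 509 genes that rose in experiment 1, 267 rose in experiment 2 as well (52.5% of the first list and 28.9% of the second), and 7 fell. Of the 321 that fell, 107 fell again (33.3% and 13.6%), and 4 rose. The change had the same sign in experiment 2 for 84.9% of the risen and 83.5% of the fallen genes, against 62.4% of all genes tested, and over all genes the 2 sets of changes correlated with r = 0.528, across genes that are not independent.

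Replication genes rose in both experiments. In experiment 2, 45 of 66 rose and none fell, with a median log2 change of 1.39, and 34 genes rose in both (91.9% of the first experiment's 37 and 75.6% of the second's 45). MCM6 changed by 2.40 ± 0.19 (adjusted p = 0.000287) and TYMS by 2.65 ± 0.17 (adjusted p = 0.00015) there. CCNE2 changed by 4.32 ± 0.18 (adjusted p = 4.35e-05), and IL33 by 2.16 ± 0.38 (adjusted p = 0.00713). Of the 65 mitosis genes, 32 rose in experiment 2 and none fell, with a median log2 change of 0.64, and all 5 that rose in experiment 1 were among the 32. CDK1 changed by 1.66 ± 0.22 (adjusted p = 0.002) and TOP2A by 1.25 ± 0.20 (adjusted p = 0.00448) in experiment 2, but CCNB1 by -0.01 ± 0.24 (adjusted p = 0.981).

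The difference in the effect of shRB between the experiments was called for 99 genes (1.16%), 62 with a more positive effect in experiment 1 and 37 with a more negative one (0.728% and 0.435% of all genes). Of the mitosis genes 2 differed past the threshold, ANLN, a protein of the contractile ring, and CKS2, by -3.04 ± 0.75 (adjusted p = 0.0418) and -1.54 ± 0.35 (adjusted p = 0.0271), and 7 of 65 differences were above 0, with a median of -0.65. Of the replication genes MCM6 and MCM4 differed, by 1.48 ± 0.35 (adjusted p = 0.0378) and 1.48 ± 0.31 (adjusted p = 0.0157). RASD1 rose in experiment 1 alone, and its change of 0.03 ± 0.17 (adjusted p = 0.93) in experiment 2 gave a difference of 3.67 ± 0.44 (adjusted p = 3.41e-05). The count of 99 was 49 without vector replicate 2 of experiment 1, 19 and 27 without vector replicates 1 and 2 of experiment 2, and 47 and 40 without its shRB replicates 1 and 2. The labels do not say whether both experiments were normalized together, and the difference assumes that their values share 1 scale. Experiment and any difference in culture or array handling between the 2 experiments cannot be told apart.

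**Figure D5:**
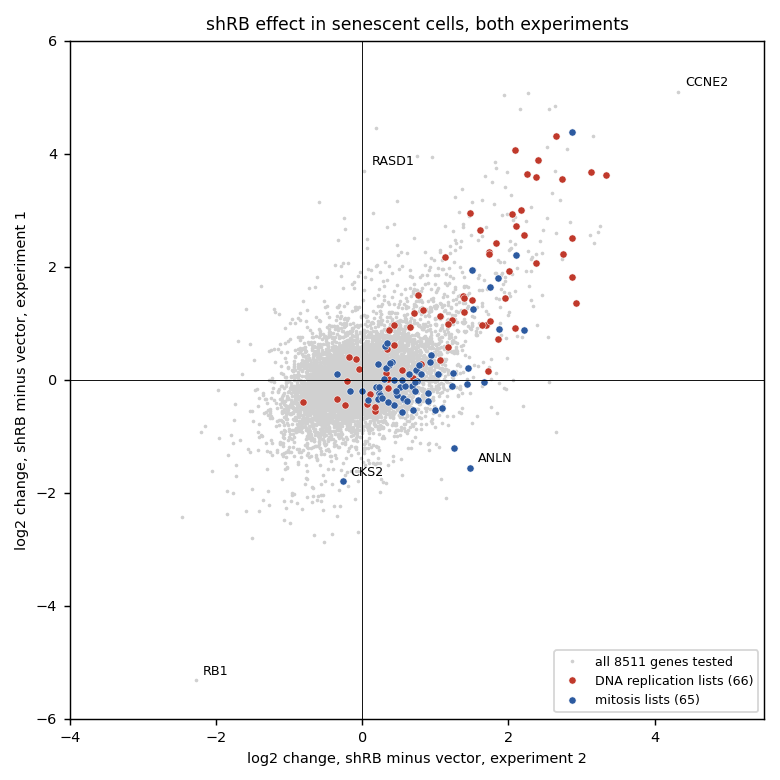
Log2 change with shRB against vector in senescent cells of experiment 1 (y axis) plotted against that in experiment 2 (x axis) for all genes tested (grey), the 66 replication genes (red) and the 65 mitosis genes (blue). Most red points lie high in both experiments, and most blue points lie to the right of 0 but near 0 on the y axis.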

How the data were processed

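Total RNA of IMR90 cells was measured on Affymetrix expression arrays, and the deposited values are log2 signals per probe set. The authors used GCRMA, as the submitters' processing notes say, with no version named in the sources used here. GCRMA removes modelled background and shrinks dim probe sets toward a floor, so changes of dim genes are compressed. The values were used as deposited. Of 54613 probe sets, 41091 named 1 gene through the platform annotation, 1801 named several and 11721 none. For each of 19775 genes the brightest probe set, by its mean of all 38 arrays, was used. A gene was tested if 2 or more arrays of experiment 1 had a log2 value over 5, which held for 8511 genes. Limma 3.58.1 in R 4.3.3 was fitted with 1 mean per group over the 32 arrays of experiment 1 (16 residual degrees of freedom), over the 6 of experiment 2 (3), and over all 38 for the difference between experiments. P-values were adjusted by Benjamini-Hochberg over the genes tested, with calls made under 0.05. The fit was tested on simulated data. Named genes were RB1, RBL1 and RBL2, the 30 strongest rises and the 30 strongest falls (called, without overlap of the groups), list members, and the 5 largest rises and falls of the other comparisons. A gene on an array is its single probe set, so levels of different genes were not compared. The comparison, the gene lists and the tests were chosen with earlier results of these data known. Equal replicate numbers were not taken as pairs, since not every pair of groups correlated over 0.1. The replicate differences of senescent shRB and vector cells correlated with r = 0.08 in experiment 1 and r = -0.14 in experiment 2, and those of 120 pairs of groups of experiment 1 with r from -0.38 to 0.49. In experiment 2, growing vector cells correlated with senescent shRB cells at r = 0.63 and with senescent vector cells at r = -0.06. Promoter windows came from the RefSeq table for GRCh38.p14, matched by symbol.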

Additional observations from a re-analysis of the deposited data

Results flagged for a closer look

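The effect of shRB in senescent cells was set against its effect elsewhere, and each difference below passed limma's test of the difference itself, with Benjamini-Hochberg adjustment. Values are differences of log2 changes, positive where the change was more positive in the senescent cells of experiment 1.

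Between experiment 1 and experiment 2 the difference was called for 99 genes. It was 3.74 for ST3GAL6, a sialyltransferase, 3.67 for RASD1, 3.12 for PAQR5, a progesterone receptor of the membrane, 3.10 for SERPINB4 and 2.99 for TNP1. On the negative side it was -3.24 for PDK4, -3.04 for RB1, -3.04 for ANLN, -2.65 for GLT8D2 and -2.35 for NEXN. Within experiment 1 the change of ANLN was -1.56 and was not called (adjusted p = 0.0926).

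Against growing cells the difference was called for 169 genes. It was 5.21 for IL33, 5.09 for SERPINB4, 4.89 for PPBP, 4.87 for IFI6 and 4.74 for RGS5, and -3.21 for MAP3K7CL, -2.95 for DDIT4L, -2.95 for RBMS3, -2.92 for GLT8D2 and -2.74 for AJUBA. Against low serum it was called for 149 genes, with 4.84 for SERPINB4, 4.71 for PPBP, 4.67 for IFI6, 4.45 for RGS5 and 4.31 for ESM1. The negative differences from low serum were -2.87 for NEXN, -2.71 for FGF5, -2.54 for ALG14, -2.52 for CKS2 and -2.49 for GLT8D2.

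Against confluent cells the difference was called for 1186 genes. It was 12.02 for RGS5, 9.44 for IL13RA2, a decoy receptor, 8.51 for MMP3, 8.33 for CXCL6 and 8.17 for CXCL3. Negative differences from confluence were -6.52 for ATP8B1, -6.05 for GAS6, -5.13 for TNFSF4, -5.11 for MEST and -4.84 for MAP3K7CL. Within senescent cells shRB changed IL13RA2 by 0.16, MMP3 by 0.30, CXCL3 by 0.97, TNFSF4 by 0.10 and MEST by -0.98. None of these changes was called (adjusted p from 0.128 to 0.914), while RGS5, CXCL6, ATP8B1, GAS6 and MAP3K7CL were called there. All 3 sets share the senescent arrays of experiment 1, so they are not independent of each other.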

How the results depend on the processing

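None of the called genes named in the text changed direction after quantile normalization (139 genes) or with the mean of all probe sets (130 genes). The other settings could not reverse them. They leave the changes as they are, or leave out 1 array of groups that did not overlap. Small changes of genes that were not called, such as CCNB1, could change sign. The 830 calls of shRB against vector became 396 when the senescent groups alone were fitted, 300 with the 4 compared arrays alone and 376 to 609 when 1 of the 4 arrays was left out, while 7 further settings (filters, quantile normalization, mean of probe sets, intensity trend, replicate block) gave 623 to 942. Of the 60 genes with the largest changes, 12 calls were lost without vector replicate 2, 9 without shRB replicate 2, 5 without shRB replicate 1, 3 without vector replicate 1, 10 with the 4 compared arrays alone, 6 with the senescent groups alone and none after quantile normalization, and 4 of 57 with the mean of probe sets. Of all 139, 52 calls were lost with the 4 compared arrays alone. The replicate number as a block gave 843 calls for experiment 1 and 2637 for experiment 2, where the 2 replicate differences correlated with r = -0.14. The crossed pairing of experiment 2, chosen after seeing the data, gave 925 calls. With 1 array left out, calls numbered 289 to 1227 in experiment 2, 19 to 100 for experiment 1 minus experiment 2, 84 to 145 for senescent minus growing, 78 to 165 for senescent minus low serum and 736 to 1584 for senescent minus confluent. They numbered 567 to 2556 against shp107, 534 to 860 against shp130, 1641 to 2066 for senescent shRB against growing vector and 1337 to 1490 for senescent against growing vector. A mean above 5 as the filter gave 35 calls for the difference between experiments, 91 for senescent minus growing and 81 for senescent minus low serum, with fewer genes tested. Fitting the senescent groups alone gave 756 calls against shp107 and 595 against shp130. Some counts rose with 1 array left out, such as that against shp107, from 1923 to 2556 without shp107 replicate 1. The cause of these shifts was not tested. Signal near background limits the 170 risen genes with a vector mean of at most 5 and the 74 fallen genes with an shRB mean of at most 5.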

Other observations

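Secretory genes of senescence were also set against growing vector cells. IL1B was higher in senescent shRB than in growing vector cells by 6.63 ± 0.78 (adjusted p = 1.25e-06), IL6 by 3.29 ± 0.83 (adjusted p = 0.00439) and CXCL8 by 2.77 ± 0.66 (adjusted p = 0.00286) on the log2 scale. CDKN2B, which encodes p15, was higher by 7.45 ± 0.70 (adjusted p = 5.25e-08). LMNB1 differed by -0.67 ± 0.49 (adjusted p = 0.319) in senescent shRB and by -3.27 ± 0.49 (adjusted p = 3.28e-05) in senescent vector cells, both against growing vector cells, whose arrays the values share.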
